A study of Homo sapiens with 4 samples.

Results

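The 6 genes OAS1, OAS2, OAS3, OASL, MX1 and MX2 were taken by name from the count tables of A549 cells, 6 of 50868 genes in all. A549 is a human lung adenocarcinoma line. RNA was sequenced in 4 libraries, 2 from control cells (empty vector, per the study) and 2 from cells that overexpress USP12, a deubiquitinase whose coding sequence the study cloned into pLVX lentiviral vectors. All 4 libraries came from the same line with no further treatment in the labels. The labels do not say whether the 2 libraries of a group came from separate cultures, nor whether the USP12 cells were a pool or a clone, so p-values here measure the spread between these libraries, which may be technical. The promoter that drove USP12 is not named in the sources used here. The question was whether transcripts of these antiviral genes differed between USP12 and control cells.

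The OAS proteins are oligoadenylate synthetases. OAS1, OAS2 and OAS3 bind double-stranded RNA and make short 2′-5′-linked adenylate chains, which act as second messengers of the antiviral response. OASL carries the same fold with ubiquitin-like domains at its end, lacks synthetase activity in humans, and acts on the RNA sensor RIG-I and the DNA sensor cGAS. MX1 and MX2 are large GTPases of the dynamin superfamily that assemble into rings and block incoming virus particles. MX1 is best known for acting on influenza and other RNA viruses, and MX2 for acting on retroviruses and herpesviruses at the nuclear envelope. Type I and type III interferons induce these genes through a transcription factor complex that holds STAT2 and IRF9 and binds an interferon-stimulated response element (ISRE) in their promoters. Epithelial cells of the lung express them at low levels until interferon is sensed.

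OAS1 (ENSG00000089127), OAS3 (ENSG00000111331) and OAS2 (ENSG00000111335) lie in a row on the plus strand of chromosome 12 of GRCh38, at 112905856 to 112933219, 112938051 to 112976460 and 112978395 to 113011723 in GENCODE 44. OASL (ENSG00000135114) lies apart from them on the minus strand of chromosome 12, at 121017763 to 121039246. MX2 (ENSG00000183486) and MX1 (ENSG00000157601) are neighbours on the plus strand of chromosome 21, at 41361999 to 41409393 and 41420020 to 41470071. All 6 genes code for protein. MX1 overlaps TMPRSS2 on the opposite strand, which had 11, 1, 1 and 0 counts in the 4 libraries, far fewer than MX1 in each.

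Because the 6 genes had been seen to move together, the promoters were read for the ISRE core. The RefSeq promoter table (GRCh38.p14, 250 bases before to 50 bases after a start) held 3 of the 6 genes, OAS1, OAS3 and MX1, in 5 windows. OAS2, OASL and MX2 were not matched. The ISRE core was searched as GAAA, any 2 bases and GAAA again, on both strands, and, after the sequences had been seen, with a spacer of 1 base as GAAANGAAA. The first form was in 3.57% of all 35116 windows and the second in 3.12%. The sites that lie before the start of the transcript GENCODE names canonical are given here 5′ to 3′ on the plus strand of the gene, with the match in capitals and up to 10 bases on each side, so that the repeated GAAA blocks can be compared.
OAS1, chr12:112906935-112906961: cccttctgagGAAACGAAAccaacagc
OAS3, chr12:112938321-112938350: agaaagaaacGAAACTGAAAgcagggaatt
OAS3, chr12:112938452-112938473: agccgggcggGAAAACGAAAcc
MX1, chr21:41426116-41426144: aggagctaggTTTCGTTTCtgcgcccgga
MX1, chr21:41426161-41426189: ggtctgtgagTTTCATTTCttcgcggcgc

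In OAS1 the match spans bases -17 to -9 before the start and has the spacer of 1. In OAS3 matches with the spacer of 2 span bases -143 to -134 and -12 to -3. Another match of OAS3 with the spacer of 1, at -148 to -140, overlaps the first of these, so that GAAA blocks stand in a row there. Both sites of MX1 read as the reverse complement, with the spacer of 1, at -113 to -105 and -68 to -60. The GAS element, searched as TTCNNNGAA and present in 7.66% of windows, was in the OAS1 window at -168 to -160 and in an MX1 window at another start, at -189 to -181. The kappaB consensus, present in 11.3% of windows, was in the OAS3 window at -130 to -121, where it also reads on the other strand 1 base further on, and in MX1 windows at other starts, at -200 to -191 and -89 to -80. The MX1 window with the kappaB match at -200 to -191 also held the ISRE core, at 11 to 20 after the start. The MX1 window with the kappaB match at -89 to -80 held it at -196 to -187. These are matches of letters and were not tested for binding.

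The deposited counts summed to between 14280081 and 16305356 per library. A level of 3 counts, taken as the floor, was between 0.166 and 0.227 CPM (counts scaled to library size in the usual unit of CPM, with the TMM factors of edgeR), which covers counting error only. USP12 had 15.2 and 34.4 CPM in control replicates 1 and 2 and 1745 and 2235 CPM in USP12 replicates 1 and 2, which matches the labels. All 10 markers of A549 cells that were looked up, among them KRT8, KRT18 and AKR1B10, were above the floor, and CDKN2A, which is deleted in A549, had 0 counts in every library. In 5 of the 10 the USP12 values both lay under the control values, and in 2 both lay above them. Among all 15222 tested genes these shares were 17.0% and 19.5%. KRT19 met the criterion for lower genes given below (437 and 114 against 68.7 and 55.9 CPM), as did 4.41% of all tested genes. Of 9 markers of blood, endothelial and fibroblast cells, 5 were above the floor in at least 1 library. Their summed level was 63.6 and 15.96 CPM in control cells, against 33.4 and 28.5 CPM with USP12. CD3E had 0 counts in every library. Of the 4 that were tested, 2 endothelial genes were called lower by the same criterion, beside 4.41% of all tested genes. COL1A1 was above both control libraries (13.01 and 2.60 against 18.9 and 14.6 CPM) and CD14 overlapped. CDH5 had 10.3 and 5.32 CPM against 0.144 and 0.346 CPM and PECAM1 5.15 and 3.10 against 0.288 and 0.970 CPM, and the part of these markers in the results was not tested. The column heading of control replicate 1 begins with another date-like number than those of the other 3 libraries, and any batch this marks cannot be separated from that single library.

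All 6 genes were lower in both USP12 libraries than in both control libraries, and such a separation in this direction was seen in 17.0% of the 15222 tested genes, beside 19.5% in the other direction. In bulk RNA, fewer cells that express a gene and less RNA per cell cannot be told apart. Of the 6 genes, 5 passed the filter on low counts and were tested, 4 of them with at least 10 counts in every library, and MX2 did not pass. No OAS or MX gene had an adjusted p under 0.05 in edgeR's quasi-likelihood test, and no gene of the table did (0.0% in each direction). USP12 itself, with a log2 fold change of 6.32, had an adjusted p of 0.0975 in this test, and no gene had a smaller one. Without adjustment, 1155 genes (7.59%) had p under 0.05, the 5 tested OAS and MX genes among them. Other tests of the same counts made calls: DESeq2 called 273 genes lower (1.79%) and 133 higher (0.874%), 5 OAS and MX genes among the lower, and the edgeR exact test 262 (1.72%) and 167 (1.1%), 4 among the lower. With no filter the shares were 1.46% and 0.673%, and with a replicate block 1.65% and 1.01%. By the criterion of the study for lower genes (unadjusted p of at most 0.05 with a log2 fold change of at most -1), the 5 tested OAS and MX genes were called, beside 4.41% of all tested genes. Without control replicate 2 the criterion called 3 of the 6, beside 13.3% of the 16008 genes tested then, and OAS3 and MX1 were not past its fold change. With 2 libraries against 2, an exact two-sided permutation test of 1 gene cannot give a p below 0.333.

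OAS1, the smallest synthetase of the family, had 349 and 386 CPM in control replicates 1 and 2 and 59.4 and 49.0 CPM in USP12 replicates 1 and 2. The control mean was 367 ± 26.5 CPM and the USP12 mean 54.2 ± 7.37 CPM (SD, n = 2 each). Both control libraries were high and both USP12 libraries low, with a gap between the groups much wider than the spread within either. Its log2 fold change was -2.76 (standard error 0.36, edgeR quasi-likelihood adjusted p = 0.154), and 258 tested genes had a lower one. OAS1 was the member whose control libraries lay closest. Control replicate 2 was 1.11 times control replicate 1 (95% exact binomial interval 1.07 to 1.15, counting error only). Control replicate 1 was 6.45 times the 2 USP12 libraries summed (6.08 to 6.83), and control replicate 2 was 7.14 times them (6.75 to 7.55).

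Here and in what follows, values of a group are given in the order of replicates 1 and 2. OAS3, the largest synthetase, had 173 and 935 CPM in control cells, against 121 and 132 CPM with USP12. Its means were 554 ± 539 and 126 ± 7.90 CPM (SD, n = 2 each). Control replicate 2 stood far above the other 3 libraries, which lay within a narrow range. The log2 fold change was -2.13 (standard error 0.76, edgeR quasi-likelihood adjusted p = 0.554). Against control replicate 1 alone it was -0.43, and against control replicate 2 alone -2.89. In such fits the lone control library is assumed to vary like the USP12 libraries. Control replicate 1 was 1.37 times the summed USP12 libraries (95% exact binomial interval 1.299 to 1.44).

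OAS2, the synthetase of intermediate size, had 37 and 2297 counts in control cells, against 12 and 2 counts with USP12, or 2.80, 127, 0.864 and 0.139 CPM. The last of these is under the floor. The control libraries differed 45.5-fold (95% exact binomial interval 32.9 to 64.7), the widest gap of the 6 genes, while both USP12 libraries were lower still. The log2 fold change was -7.01 (standard error 1.93, edgeR quasi-likelihood adjusted p = 0.368), and it was -2.44 against control replicate 1 alone and -7.98 against control replicate 2 alone. Control replicate 1 was 5.67 times the summed USP12 libraries (2.99 to 11.3), which together held 14 counts.

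OASL had 13.7 and 83.0 CPM in control cells, against 4.82 and 4.78 CPM with USP12. The USP12 libraries were nearly equal, with a ratio of 0.991 (95% exact binomial interval 0.698 to 1.41), and both were below control replicate 1. The log2 fold change was -3.33 (standard error 0.89, edgeR quasi-likelihood adjusted p = 0.352). Against control replicate 1 alone it was -1.48, where control replicate 1 was 2.85 times the summed USP12 libraries (2.27 to 3.59), and against control replicate 2 alone it was -4.11.

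MX1 had 9.08 and 220 CPM in control cells, against 5.18 and 4.16 CPM with USP12. Control replicate 2 was 24.2 times control replicate 1 (95% exact binomial interval 20.2 to 29.3). MX1 had a log2 fold change of -4.61 (standard error 1.39, edgeR quasi-likelihood adjusted p = 0.426). Against control replicate 1 alone it was -0.93, and against control replicate 2 alone -5.55. Both USP12 libraries lay below both control libraries, but control replicate 1 was nearer to them than to control replicate 2.

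MX2 had 8 and 276 counts in control cells and no count in either USP12 library. Set against the floor of 3 counts in USP12 replicate 1, 0.216 CPM, the higher of the USP12 floors after TMM scaling, the control mean of 7.95 CPM was at least 36.8-fold higher. Control replicate 1 by itself was at least 2.80-fold above that floor and control replicate 2 at least 70.8-fold. As MX2 was not tested, this gap has no p-value.

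**Figure D1:**
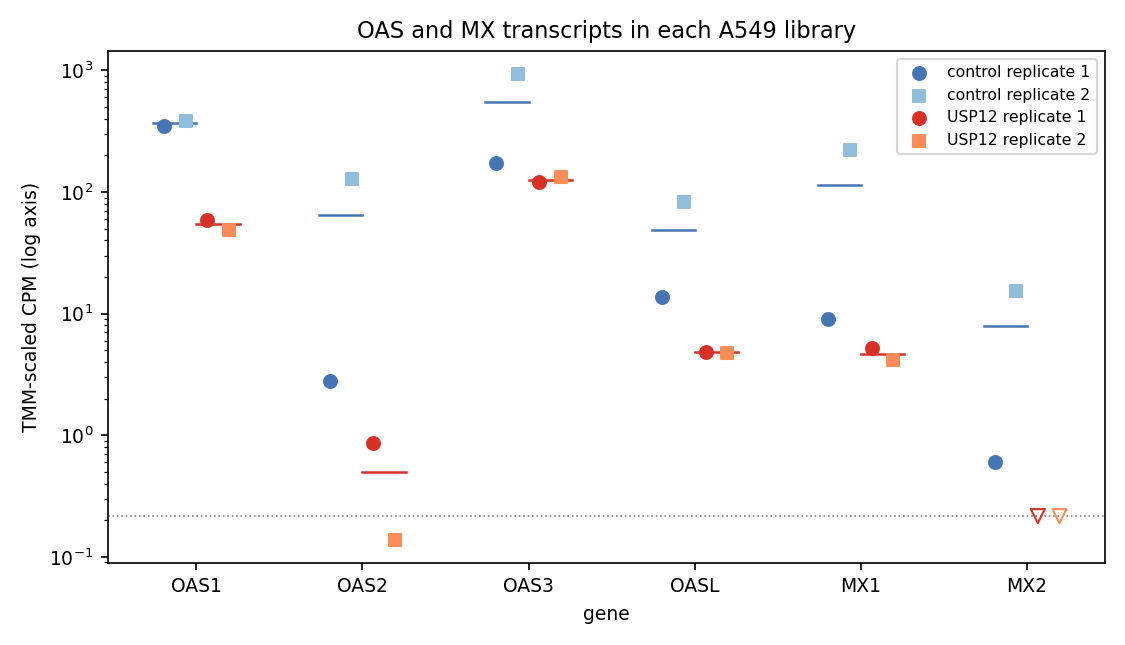
TMM-scaled CPM (log axis) of each gene in the 4 A549 libraries, with a horizontal bar at the mean of each group of 2 libraries. Open triangles mark the 0 counts of MX2, drawn at the floor of 0.216 CPM (dotted line), and the plot shows OAS1 high in both control libraries while the other 5 genes stood highest in control replicate 2 alone.

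The median log2 fold change of the 5 tested genes was -3.33, and -3.97 over all 6 with MX2 at its bound, beside -0.06 over all 15222 tested genes. The 5 genes had passed the filter, and the 6 were chosen with earlier results known, so these medians are descriptions. Control replicate 2 exceeded control replicate 1 by a log2 of 2 or more in 4 of the 5 tested genes, OAS1 being the exception, beside 6.03% of all tested genes, and 5.05% were lower by as much. The median difference between the control libraries was 2.59 on the log2 scale for the 5 genes and 0.01 for all tested genes. Between the USP12 libraries it was -0.28 for the 5 genes and 0.00 for all tested genes.

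**Figure D2:**
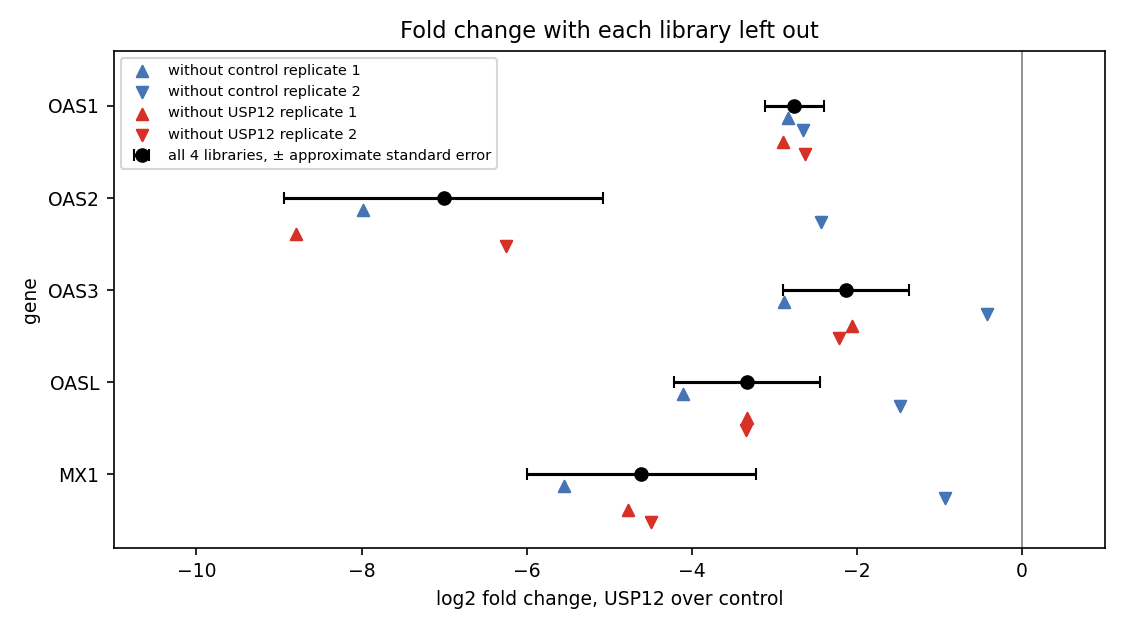
Log2 fold change of USP12 over control (horizontal axis) for the 5 tested genes, with all 4 libraries (black, ± approximate standard error) and with 1 library left out (triangles). The value of OAS1 stayed between -2.89 and -2.63, while that of MX1 went from -5.55 without control replicate 1 to -0.93 without control replicate 2.

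The 6 transcripts were compared with each other per kilobase of the transcript that GENCODE 44 names canonical, from 1631 bases for OAS1 to 6599 bases for OAS3. On that scale OAS1 was the highest in all 4 libraries, at 214 and 237 CPM per kilobase in control cells, against 36.4 and 30.02 with USP12. OAS3 came next, at 26.2 and 142 CPM per kilobase in control cells, against 18.3 and 20.0 with USP12. The order of these top members depends on the length used: with the merged length of all annotated exons, a choice added after the data had been seen, OAS3 was above OAS1 in 3 of the 4 libraries. MX1 ranked 3 in control replicate 2 (79.1 CPM per kilobase) and in both USP12 libraries (1.87 and 1.497), and 4 in control replicate 1 (3.27), but 4 in all libraries and behind OASL with merged exon lengths. In both USP12 libraries MX1 was above OASL (1.47 and 1.46 CPM per kilobase) with the canonical length, a difference that was not tested. OAS2 went from 27.5 CPM per kilobase in control replicate 2 to 0.606 in control replicate 1 and to 0.187 and 0.0300 in the USP12 libraries. MX2 was last in every library. The balance within the family differed between the control libraries. Of the level of the 6 genes per kilobase, OAS1 made up 86.1% in control replicate 1 and 46.0% in control replicate 2. The USP12 libraries, at 62.5% and 56.7%, lay between them. With merged exon lengths these shares were 68.1%, 24.9%, 36.9% and 31.2%.

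Interferons themselves were hardly detected. Of 10 interferon ligand genes, 4 were above the floor in any library and none was tested. IFNL1, IFNL2 and IFNL3, the epithelial type III interferons, had 14, 15 and 5 counts in control replicate 2 and at most 1 count in the other 3 libraries. IFNB1 had 1 count in control replicate 2 and 0 in the others. IFNE, a type I interferon of epithelia, went the other way, with 0 and 2 counts in control cells, against 14 and 7 with USP12. The part of these ligands in the levels of OAS and MX genes was not tested.

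None of the 9 receptor and Janus kinase genes was called by the criterion of the study in either direction, and their median log2 fold change was -0.23. The type I receptor chain IFNAR1 had 26.7 and 49.5 CPM in control cells, against 34.1 and 36.6 CPM with USP12, which overlap. In 3 of the 9, IFNGR1, IFNGR2 and IL10RB, both USP12 values lay under both control values, beside 17.0% of all tested genes. In 1, JAK1, both lay above them, beside 19.5%. Of 8 transcription factors of the pathway, 1 was called lower and 0 higher, where 4.41% and 2.92% of all tested genes were, a background that also holds for the lists of regulators and sensors. That gene was IRF7, an amplifier of interferon production, with 14.5 and 50.8 CPM in control cells, against 4.03 and 3.19 CPM with USP12 (log2 fold change -3.17, standard error 0.72, edgeR quasi-likelihood adjusted p = 0.298). STAT2 (56.2 and 54.1 against 29.6 and 31.0 CPM) and IRF9 (36.4 and 70.9 against 26.5 and 25.2 CPM) did not overlap between the groups, and neither met the criterion.

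Of 7 negative regulators, 6 were tested and 1, ISG15, was called lower by the criterion. ISG15, a ubiquitin-like protein, had 17.0 and 65.3 CPM in control cells, against 2.16 and 1.11 CPM with USP12. USP18, the protease that removes ISG15 from its targets, had 7.95 and 45.8 against 9.29 and 8.59 CPM and overlapped. Of 11 sensors and adaptors, 2 were called lower and 0 higher, and their median log2 fold change of -1.10 was 0.12 without control replicate 2. The called sensors were IFIH1, which encodes the RNA sensor MDA5 (3.86 and 35.0 against 1.01 and 2.91 CPM), and DHX58, which encodes LGP2 (3.41 and 5.04 against 0.576 and 0.139 CPM). RIGI, whose product OASL acts on, had 6.81 and 56.2 CPM in control cells, and its 7.70 and 6.93 CPM in the USP12 libraries were above control replicate 1 and below control replicate 2. ABCE1 and the phosphodiesterase PDE12, which breaks down the OAS product, overlapped between the groups.

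Of 31 other antiviral effectors induced by interferon, 27 were tested, and 11 were called lower and 0 higher by the criterion of the study, beside 4.41% and 2.92% of all tested genes. Their median log2 fold change was -1.95, and 0.14 without control replicate 2. In 11 of the 27 the USP12 libraries both lay under each control library, beside 17.0% of all tested genes. The control libraries split this list. Both USP12 libraries were below control replicate 2 in 25 of the 27 genes, but below control replicate 1 in 13 and above it in 12. Among all tested genes, both USP12 libraries were below control replicate 1 in 42.3% and below control replicate 2 in 40.2%. The 6 OAS and MX genes were below each control library.

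Among those effectors, a few resembled OAS1 in that both control libraries were high. ISG20, an exonuclease, had 88.8 and 61.4 CPM in control cells, against 10.7 and 9.07 CPM with USP12 (log2 fold change -2.92, standard error 0.44, edgeR quasi-likelihood adjusted p = 0.179). IFITM3, which blocks virus entry at endosomes, had 227 and 137 against 23.3 and 18.7 CPM. IFI6 had 130 and 303 against 7.85 and 4.85 CPM, a log2 fold change of -5.09 (standard error 0.62). These 3 genes were picked after their values had been seen.

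Others stood high in control replicate 2 alone, as MX1 did, but without falling below control replicate 1. IFI44 had 1.06 and 29.4 CPM in control cells, against 1.51 and 1.11 CPM with USP12. The RNA-activated kinase EIF2AK2 had 39.7 and 275 CPM in control cells, against 70.2 and 66.8 CPM with USP12. Unlike these, BST2, which tethers budding virus to the cell, had 112 and 895 counts in control cells, against 1 and 0 counts with USP12, so it was low against both.

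**Figure D3:**
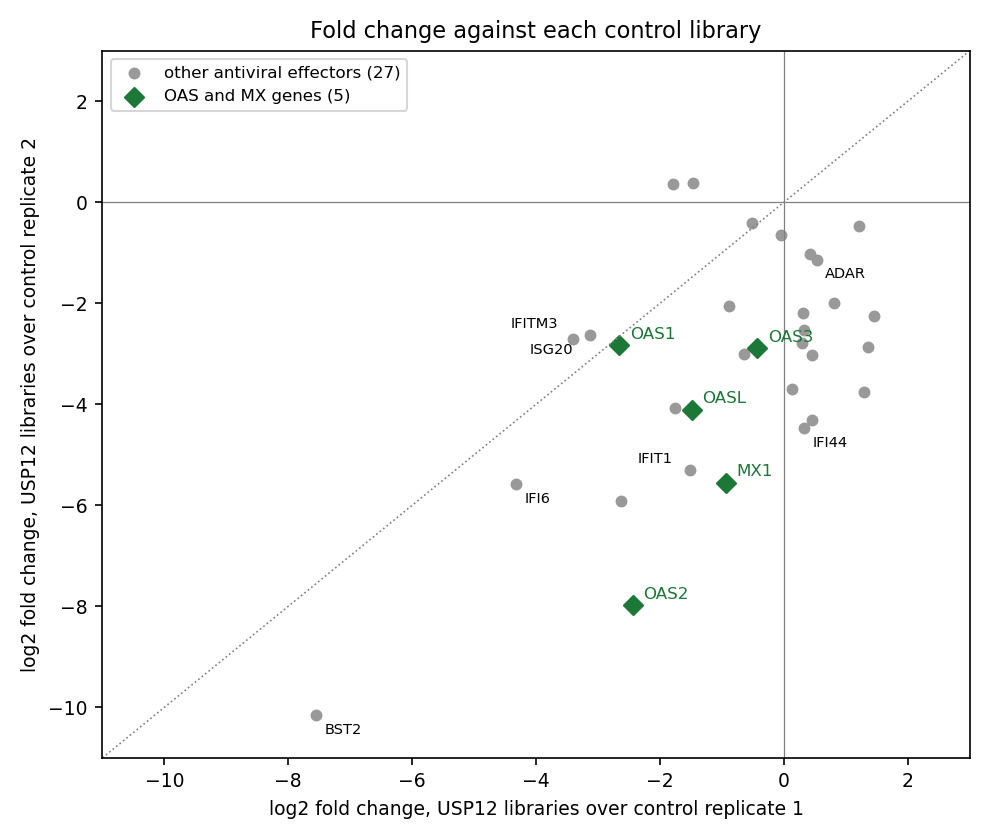
Log2 fold change of the 2 USP12 libraries over control replicate 1 alone (horizontal axis) and over control replicate 2 alone (vertical axis) for the 5 tested OAS and MX genes (diamonds) and 27 other antiviral effectors (grey). Points on the dotted line changed equally against both, as OAS1 nearly did, and both axes share the USP12 libraries, so the values are not independent.

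The genes whose pattern lay closest to the mean of the 5 tested OAS and MX genes were ranked by the distance between their log2 CPM values, each centred on its mean over the 4 libraries. The mean pattern was 0.05 in control replicate 1, 3.08 in control replicate 2, and -1.33 and -1.80 in the USP12 libraries. The nearest 10 genes outside the family were IFIT1, NOSTRIN, IFITM1, ZFP3, IRF7, IFI27, HELZ2, DDX60, CACNA1D and LAMP3, at distances from 0.57 to 1.16, where the median of all tested genes was 3.93. IFIT1, which binds viral RNA that lacks a proper cap, was nearest, with 14.2 and 191 CPM in control cells, against 5.76 and 3.95 CPM with USP12. NOSTRIN, an adaptor of nitric oxide synthase, had 5.15 and 33.1 against 1.94 and 1.94 CPM. CACNA1D, a calcium channel subunit, had 4.16 and 31.1 against 2.16 and 2.70 CPM. Of the family itself, OASL was the most typical member, at a distance of 0.57, and OAS2 the least, at 2.86.

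**Figure D4:**
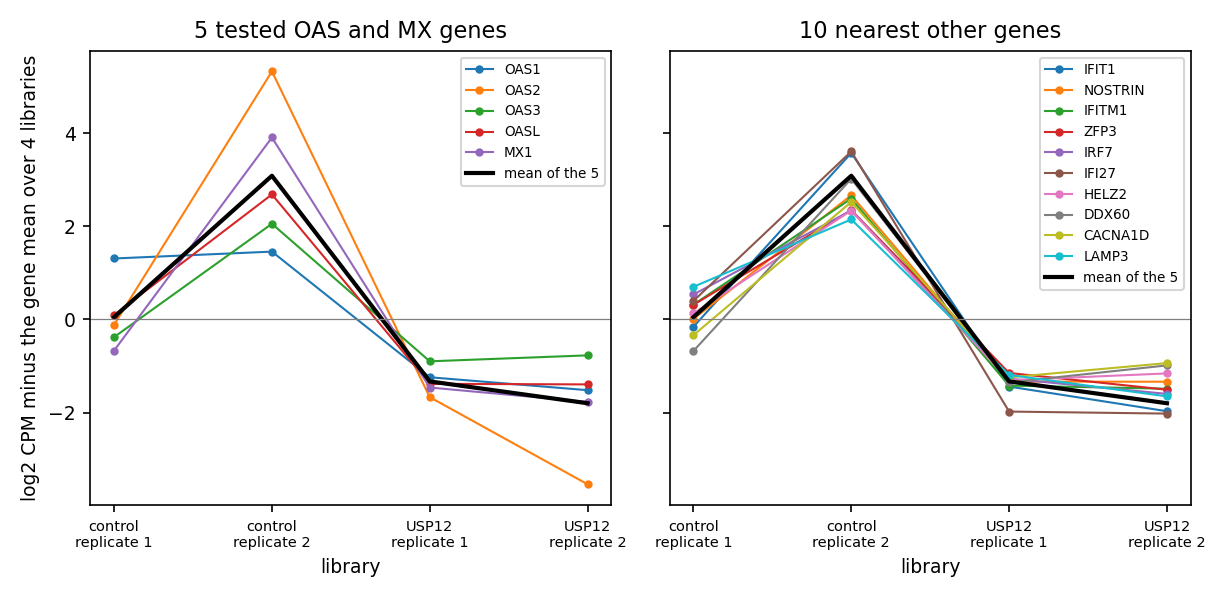
Log2 CPM minus the mean of each gene over the 4 libraries, for the 5 tested OAS and MX genes (left) and the 10 genes nearest to their mean pattern (right), where lines join the values of 1 gene and imply no order of the libraries. OAS1 was nearly level across the control libraries (1.31 and 1.46), whereas OAS2 rose to 5.33 in control replicate 2.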

How the data were processed

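Per the methods, the authors made strand-specific libraries of mRNA, trimmed reads and took out ribosomal ones with Seqtk, mapped to GRCh38 with HISAT2 2.0.4 and counted uniquely mapped fragments per gene with StringTie 1.3.0 (versions from the submitters' processing notes). Which annotation release was counted, and whether by strand, is not given in the sources used here. The deposited values are raw counts for 50868 genes, 1 table per library. Counts were analysed in R 4.3.3 with edgeR 4.0.16 (filterByExpr, TMM, quasi-likelihood test, Benjamini-Hochberg adjustment over 15222 genes). The fits were also run on simulated counts with the same spread set for every gene, which does not show how well they do on these libraries. Standard errors are approximate, the size of the log2 fold change over the square root of the F statistic. CPM are TMM-scaled, with a prior count of 2 on the log2 scale. The 134 list entries were matched to the tables, 134 of 134.

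The genes, lists, tests and alternatives were chosen with earlier results of these data known. Genes named are the 6 members, USP12, list genes above 3 counts in a library (IFNB1, CD3E and CDKN2A, at or near 0, were named after their values were seen), the 10 genes nearest to the mean pattern (of the 5 tested members, as MX2 did not pass the filter) and 2 protein-coding neighbours on each side of a locus, some of which are not reported here. Alternatives were DESeq2 1.42.0 size factors and Wald test, no filter, at least 10 counts in every library, the edgeR exact test, the replicate number as a block, leaving out each library and promoters without the 50 bases after the start. The groups share replicate numbers 1 and 2, and no source says that these pair the libraries.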

Additional observations from a re-analysis of the deposited data

How the results depend on the processing

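All 5 tested genes stayed lower in USP12 cells under every alternative that gave a value. The sizes of their fold changes, and the calls at an adjusted p of 0.05 or by the study criterion, differed between alternatives. Scaling with DESeq2 size factors, or at least 10 counts in every library (which removes OAS2), also called 0 genes. With no filter on low counts, 361 genes were called lower and 167 higher, 6 OAS and MX genes and 16 other effectors among the lower, with log2 fold changes of -2.75 for OAS1, -2.13 for OAS3, -7.01 for OAS2, -3.33 for OASL and -4.61 for MX1. The study criterion then called 1173 genes lower and 688 higher, and 23 effectors lower. DESeq2 called 273 lower and 133 higher, with 5 OAS and MX genes (-2.78, -2.15, -7.03, -3.35 and -4.63 in the same order) and 8 effectors, or 17 by the criterion. By edgeR's exact test, 262 were lower and 167 higher, with 4 OAS and MX genes (OAS1 -2.76, OAS2 -7.00, OASL -3.33 and MX1 -4.61) and 7 effectors.

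With the replicate number as a block, 251 genes were called lower and 153 higher, 5 OAS and MX genes (OAS1 -2.77, OAS3 -1.68, OAS2 -5.33, OASL -2.82 and MX1 -3.29) and 7 effectors among the lower, and the median of the dynamin superfamily list became 0.032. Deviations of libraries with the same number correlated at 0.15, and with 2 pairs the numbers are only names. The prior degrees of freedom of the edgeR fit were 4.15, and infinite with the block and with no filter. The cause of these differences in calls was not tested.

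Leaving out 1 library gave 28 to 2612 genes lower and 12 to 2550 higher, 2 to 6 OAS and MX genes and 2 to 24 effectors lower by adjusted p. By the criterion it gave 300 to 2134 genes lower, 159 to 2495 higher, 3 to 6 OAS and MX genes and 9 to 25 effectors. Most genes were called without control replicate 2. Log2 fold changes ranged from -2.89 to -2.63 for OAS1, -2.89 to -0.43 for OAS3, -8.79 to -2.44 for OAS2, -4.11 to -1.48 for OASL and -5.55 to -0.93 for MX1. List medians changed sign, over -0.26 to 0.255 for the list of 5 OAS pathway genes, -1.30 to 0.12 for sensors, -2.70 to 0.14 for effectors, -0.41 to 0.22 for the dynamin superfamily and -0.42 to 0.79 for nucleotidyltransferases. Over all 15222 tested genes, the SD of the log2 ratio between the control libraries was 1.32. Between control replicate 1 and USP12 replicates 1 and 2 it was 1.28 and 1.31, and for control replicate 2 it was 1.10 and 1.01. Between the USP12 libraries it was 0.62. With 2 libraries a group, and control libraries this far apart, the fold changes of OAS2, OAS3, OASL and MX1 are known only roughly.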

Other observations

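The genes that flank the loci did not follow the OAS and MX genes as a group. Beside the block of OAS1, OAS3 and OAS2, PTPN11, a tyrosine phosphatase, had 74.5 and 208 CPM in control cells, against 101 and 124 CPM with USP12, which overlap. RPH3A on that side had 3.33 and 9.09 against 3.24 and 2.77 CPM. On the other side, DTX1 had 5.599 and 0.720 against 2.45 and 0.762 CPM, and RASAL1, a RAS GTPase activator, had 7.95 and 1.83 against 0.504 and 0.139 CPM (log2 fold change -3.89, standard error 1.08, edgeR quasi-likelihood adjusted p = 0.372). Unlike OAS2 and OAS3, DTX1 and RASAL1 were higher in control replicate 1 than in control replicate 2. Beside OASL, P2RX4 had a log2 fold change of -0.47, and P2RX7 was not tested. Around MX2 and MX1, BACE2 and RIPK4 had log2 fold changes of -0.54 and -0.08, and FAM3B and TMPRSS2 were not tested.

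Relatives of the OAS and MX families were also read. Of 15 other dynamin superfamily GTPases, 13 were tested and 1, GBP3, was called lower by the criterion of the study (9.38 and 13.7 against 2.81 and 3.32 CPM), beside 4.41% of all tested genes, with a median log2 fold change of -0.09 for the 13. DNM1, which encodes dynamin itself, had 165 and 141 CPM in control cells, against 225 and 263 CPM with USP12. Of 12 other nucleotidyltransferases, which include cGAS and the poly(A) polymerases, 11 were tested and 0 were called in either direction, with a median of 0.10. CGAS had 7.19 and 7.65 against 8.93 and 7.90 CPM.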
